A study of Arabidopsis thaliana with 24 samples.

Results

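The xyloglucan endotransglucosylase/hydrolase (XTH) genes XTH16, XTH18, XTH19, XTH32 and XTH33 were followed in germinating seeds of Arabidopsis thaliana, on ATH1 arrays of Affymetrix. Each was found by its symbol in the platform annotation, which gave 5 probe sets of the 22746 tested. A probe set is a group of short oligonucleotides on the array that reports a transcript. The 5 genes were selected on these same signals, with their differences between the groups known, so their changes below are a description and carry no p-value.

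The 24 arrays formed 4 groups of 6, which the submitters describe as biological replicates. The groups were the pkl mutant on 10 nM uniconazole-P, the wild type (Columbia) on 10 nM uniconazole-P, the pkl mutant on solvent and the wild type on solvent. Every seed lay on agar-solidified Murashige and Skoog medium with 0.01% methanol under continuous light, and the labels give neither the pkl allele nor the age at harvest. The gene affected in pkl encodes PICKLE, a chromatin remodeller of the CHD3 type. Uniconazole, a triazole, blocks the synthesis of gibberellin. The PKL transcript was not analysed here, so nothing in these values checks the genotype labels. The RNA came from whole germinating seeds, in which fewer cells of a type and less RNA per cell cannot be told apart.

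Xyloglucan is the hemicellulose that coats and connects cellulose microfibrils in the primary walls of most flowering plants. XTH enzymes act on it in the wall: an endotransglucosylase cuts a xyloglucan chain and joins the cut end to another chain, and a hydrolase cuts it with water. Both reactions change how the wall yields, and XTH genes are known for their expression in growing organs. Gibberellin promotes germination and organ elongation, and several XTH genes respond to growth hormones.

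By locus, XTH16 is AT3G23730, XTH18 is AT4G30280, XTH19 is AT4G30290, XTH32 is AT2G36870 and XTH33 is AT1G10550. XTH18 and XTH19 are neighbours in the RefSeq gene table of TAIR10.1, with XTH24 on the other side of XTH18. Of the 33 XTH genes of Arabidopsis, 10 had a probe set named for that gene alone, and the other 23 were not analysed here. Genes "measured" or "named on the array" below are those with such a probe set. The annotation did not list 8730 probe sets, so a gene not named may still be on the array. None of the 10 probe sets (0) has an identifier ending that marks probes shared with other transcripts. The deposited table names no genome build, so no coordinates are given.

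Signals are the deposited linear intensities, given as the lowest, median and highest of the 6 arrays of a group. Changes are log2 differences of the group means of log2(signal + 16) with their standard errors, from 1 limma fit over all 24 arrays. The threshold for a change was an adjusted p of 0.05 over all 22746 probe sets, and "passed" below refers to it. Signals of different genes come from different probes and were not compared. The level of 54.9, the 95th percentile of the bacterial control probe sets, served as background, and all 5 genes lay above it in every array.

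**Figure D1:**
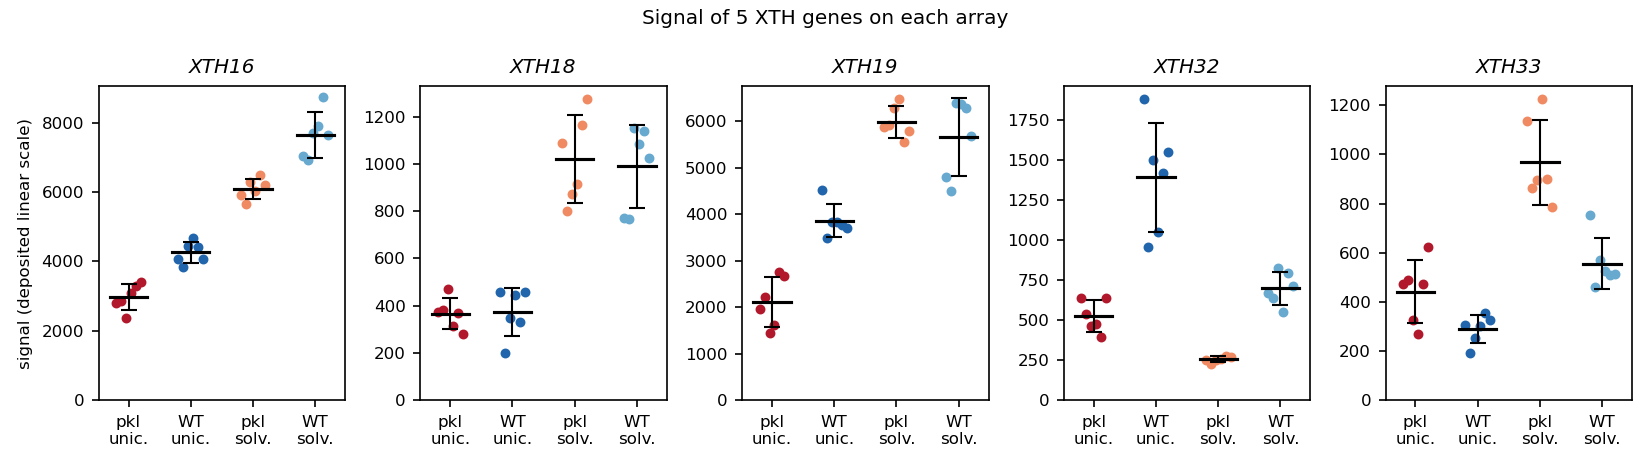
Signal (linear intensity, axes from 0) of XTH16, XTH18, XTH19, XTH32 and XTH33 in each of the 24 arrays, by group ("unic." is uniconazole, "solv." solvent, WT wild type). Points are arrays and bars the mean ± SD (n = 6). XTH16, XTH18, XTH19 and XTH33 were lower with uniconazole and XTH32 was higher.

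Uniconazole lowered 4 of the 5 genes and raised XTH32, and it did so in pkl as well as in wild type. In pkl 5 of 5 genes passed, 1 higher and 4 lower, where 22.0% of all probe sets passed in either direction (11.4% higher and 10.6% lower). In wild type 5 of 5 passed as well, 1 higher and 4 lower, where 16.5% of all probe sets passed (9.07% higher and 7.43% lower). The median log2 change of the 5 genes was -1.14 in pkl and -0.84 in wild type, and that of all probe sets was 0.02 in pkl and -0.02 in wild type. The pkl mutation divided the genes differently. With uniconazole 4 of 5 passed, XTH33 higher and XTH16, XTH19 and XTH32 lower, where 18.6% of all probe sets passed (9.87% higher and 8.69% lower). With solvent 3 of 5 passed, XTH33 higher and XTH16 and XTH32 lower, where 11.7% of all probe sets passed (6.78% higher and 4.97% lower). The arrays of the groups were fully separate for 5 of the 5 genes with uniconazole in pkl, where this held for 12.8% of all probe sets (6.84% with all uniconazole arrays above and 6.0% with all below), and for 4 of 5 in wild type, where it held for 7.18% (4.04% above and 3.14% below). Between pkl and wild type it held for 3 of 5 genes with uniconazole, against 8.99% of all probe sets (4.95% with all pkl arrays above and 4.05% below), and for 3 of 5 with solvent, against 6.29% (3.71% above and 2.58% below). Since these contrasts chose the genes, nothing is read from the counts beyond their values. Both uniconazole effects share arrays with both pkl effects.

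XTH16 encodes a secreted wall enzyme of the large endotransglucosylase branch of the family. Its signal was 2358, 2971 and 3393 in pkl with uniconazole and 3848, 4251 and 4670.1 in wild type with uniconazole. It was 5662, 6119.85 and 6476 in pkl with solvent and 6909, 7665 and 8737 in wild type with solvent. The 4 groups formed 4 separate steps, with no array of a group inside the range of another. XTH16 fell with uniconazole by 1.04 ± 0.07 on the log2 scale in pkl, a 2.06-fold lower mean signal, and by 0.84 ± 0.07 in wild type, a 1.80-fold lower mean. Set against wild type, pkl was lower by a log2 change of -0.53 ± 0.07 with uniconazole and -0.32 ± 0.07 with solvent. The transcript was thus lower with either the mutation or the inhibitor, and the interaction, the pkl effect with uniconazole minus that with solvent, was -0.20 with a 95% interval of -0.41 to 0.01 and did not pass. Pkl seeds on uniconazole had a mean 2.58-fold lower than wild type seeds on solvent. XTH16 was the steadiest of the 5 genes between replicates, with SDs of 4.71% to 12.7% of the group means.

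XTH18 and XTH19 belong to a group of root-expressed XTH genes of Arabidopsis and lie side by side. XTH19 was lower in pkl than in wild type with uniconazole and XTH18 was not, while with solvent the pkl effect passed for neither. XTH18 had 278, 372 and 469.5 in pkl with uniconazole and 197, 396 and 458 in wild type with uniconazole. It had 799, 1003 and 1277 in pkl with solvent and 765, 1054 and 1151 in wild type with solvent. All uniconazole arrays of either genotype lay below all solvent arrays, and within a treatment the genotypes overlapped. XTH18 fell with uniconazole by 1.44 ± 0.17 on the log2 scale in pkl and by 1.40 ± 0.17 in wild type, which are 2.80-fold and 2.66-fold lower mean signals. The pkl effect on XTH18 was 0.00 ± 0.17 with uniconazole, with a 95% interval of -0.34 to 0.35, and 0.04 ± 0.17 with solvent, with an interval of -0.30 to 0.39. Neither passed, and the intervals leave room for a change of up to about 0.39 on the log2 scale.

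XTH19 had 1435, 2082 and 2752 in pkl with uniconazole and 3489.6, 3798 and 4528 in wild type with uniconazole. It had 5543, 5891 and 6477 in pkl with solvent and 4488, 5972 and 6388 in wild type with solvent. The genotypes separated on uniconazole, where all 6 pkl arrays lay below all 6 wild type arrays, and overlapped on solvent. XTH19 fell with uniconazole by 1.54 ± 0.12 on the log2 scale in pkl, a 2.84-fold lower mean. In wild type it fell by 0.54 ± 0.12, a 1.47-fold lower mean, with 5 of 6 uniconazole arrays below all solvent arrays. The highest wild type array on uniconazole, at 4528.3, stood apart from the next at 3823.3. The pkl effect on XTH19 was -0.90 ± 0.12 with uniconazole and passed, and 0.09 ± 0.12 with solvent and did not.

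The difference between those pkl effects passed for XTH19, at -0.99 ± 0.17 with a 95% interval of -1.34 to -0.64. XTH19 was the 1 of the 5 genes that passed, where 0.141% of all probe sets did, 32 in number, with 0.0703% higher and 0.0703% lower. The interaction was -0.04 (-0.53 to 0.45) for XTH18, 0.02 (-0.38 to 0.43) for XTH32 and -0.22 (-0.71 to 0.26) for XTH33, each with its 95% interval, and none of these passed. The genes were not tested against each other. The same set of 5 verdicts as that of XTH19 was found for 3 of the 22746 probe sets, or 0.0132%, which were XTH19 itself, AT5G62340 and 1 not named here. By the same count the verdicts of XTH16 were shared by 188 probe sets (0.827%) and those of XTH18 by 695 (3.06%). Those of XTH32 were shared by 70 (0.308%) and those of XTH33 by 83 (0.365%), each count with the gene itself. The genes were chosen with these contrasts known, so nothing is read from these counts beyond their values.

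**Figure D2:**
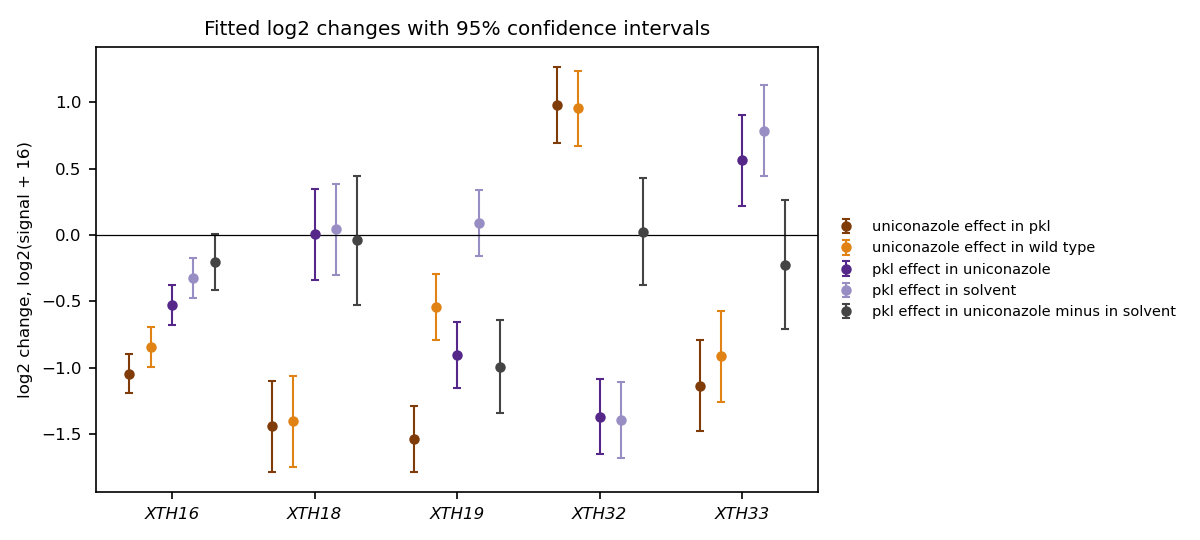
Log2 change of the 5 XTH genes in each of the 5 contrasts (y axis, difference of log2(signal + 16); the last contrast is the interaction), with bars for the 95% interval of the limma fit over 24 arrays. XTH19 is the gene whose interval for the interaction, -1.34 to -0.64, does not include 0.

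XTH32 groups with XTH31 in the subgroup of the family from which xyloglucan hydrolase activity is known. Its signal was 393, 507 and 638 in pkl with uniconazole and 958, 1461 and 1882.5 in wild type with uniconazole. It was 224.5, 252 and 275 in pkl with solvent and 548, 693 and 825 in wild type with solvent. No array crossed between groups in any of the 4 contrasts, while pkl with uniconazole and wild type with solvent overlapped. XTH32 rose with uniconazole by 0.98 ± 0.14 on the log2 scale in pkl and 0.96 ± 0.14 in wild type, 2.06-fold and 2.00-fold higher mean signals. The pkl mutation lowered it by a log2 change of -1.37 ± 0.14 with uniconazole and -1.39 ± 0.14 with solvent, 2.66-fold and 2.75-fold lower means. Mutation and inhibitor moved XTH32 in opposite directions. With both, its mean was 1.33-fold lower than in wild type on solvent, and 4 of the 6 pkl arrays lay below all wild type arrays.

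XTH33 is set apart in the family by a predicted membrane anchor. Its signal was 269.5, 473 and 622 in pkl with uniconazole and 192.5, 302 and 354 in wild type with uniconazole. It was 786, 898 and 1227 in pkl with solvent and 459.5, 519 and 753 in wild type with solvent. Both genotypes had all uniconazole arrays below all solvent arrays, and on solvent every pkl array lay above every wild type array. XTH33 fell with uniconazole by 1.14 ± 0.17 on the log2 scale in pkl, a 2.19-fold lower mean, and by 0.91 ± 0.17 in wild type, a 1.92-fold lower mean. It was higher in pkl by 0.79 ± 0.17 with solvent, a 1.74-fold higher mean. With uniconazole the pkl effect was 0.56 ± 0.17, with 4 of 6 pkl arrays above the whole wild type range. That last value is the weakest of the passing ones: it no longer passed without wild type uniconazole replicate 2 (0.46 ± 0.16) or without pkl uniconazole replicate 6 (0.46 ± 0.16). Nor did it pass when only the uniconazole arrays were fitted (0.56 ± 0.19) or with 3′/5′ ratios as covariates (0.53 ± 0.18). XTH33 varied by 17.8% to 28.6% of the group mean between replicates.

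Ordered by level, XTH16 ran from wild type with solvent at the top through pkl with solvent and wild type with uniconazole to pkl with uniconazole, and all neighbours in that order were separate. XTH18 had the solvent groups on top, pkl and wild type overlapping, and the uniconazole groups below, again overlapping. For XTH19 the solvent groups overlapped at the top, wild type with uniconazole followed and pkl with uniconazole was lowest. The order of XTH32 was wild type with uniconazole, wild type with solvent, pkl with uniconazole and pkl with solvent, and the middle groups overlapped. XTH33 was highest in pkl with solvent, then in wild type with solvent, pkl with uniconazole and wild type with uniconazole, and of these neighbours the first 2 groups were separate while the others overlapped. Between pkl with uniconazole and wild type with solvent, 3 of the 5 genes (XTH16, XTH18 and XTH19) had all pkl arrays below, where 18.4% of all probe sets had groups that did not overlap (10.2% with all pkl arrays above and 8.14% with all below).

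With the deviations within groups pooled, the 5 genes varied only loosely together. Deviations of each array from its group mean were correlated over the 24 arrays for the 10 pairs of genes, and the 10 Pearson coefficients were positive. For each pair r was also taken without 2 arrays, those farthest from the median in the deviations of the first-named gene. The second gene played no part in that choice. Then 3 of the 10 turned slightly negative. They were XTH16 and XTH32 at -0.04, XTH16 and XTH33 at -0.03 and XTH18 and XTH33 at -0.09. The last pair had a rho of -0.05 over all arrays. By the same step r rose for XTH16 and XTH18 (0.11 to 0.49), XTH18 and XTH19 (0.11 to 0.20) and XTH19 and XTH32 (0.23 to 0.42). For every other pair r fell. The largest coefficient over the 24 arrays was that of XTH16 and XTH19, with r = 0.66 and Spearman's rho = 0.50 (permutation test, two-sided p = 0.00861 and 0.0379, adjusted over the 10 pairs 0.0861 and 0.379). Without the 2 arrays chosen in that way r was 0.44. XTH19 and XTH33 gave r = 0.53 and rho = 0.39 (permutation p = 0.0369 and 0.0955, adjusted 0.185 and 0.476), and r = 0.48 without 2 arrays. The adjacent genes XTH18 and XTH19 had r = 0.11 and rho = 0.09 (permutation p = 0.582 and 0.686, adjusted 0.677 and 0.81). These values pool groups that differed. In single groups r ran from -0.63 to 0.98 for XTH18 and XTH19, and from -0.87 to 0.86 for XTH16 and XTH18. No pair (0 of 10) passed after adjustment by either coefficient, 2 passed before it by Pearson's r and 1 by Spearman's rho.

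Of the other 5 XTH genes named on the array, which the choice left over, 3 passed in 1 or 2 of the 5 contrasts and the others in none. The choice was made with these contrasts known, so these genes are not a sample independent of it. They were tested in the same fit, and their adjusted p-values are over all 22746 probe sets. XTH20, a close relative of XTH18 and XTH19 expressed in roots, had 48.9, 83.95 and 123 in pkl with uniconazole and 121, 140.0 and 188 in wild type with uniconazole. It had 83.1, 138 and 172 in pkl with solvent and 126, 142 and 203 in wild type with solvent. The pkl arrays on uniconazole sat lowest, 5 of 6 below all wild type arrays on uniconazole. XTH20 was lower in pkl with uniconazole by -0.69 ± 0.19 (limma, adjusted p = 0.00936) and fell with uniconazole in pkl by 0.58 ± 0.19 (adjusted p = 0.0262). With solvent the pkl effect was -0.23 ± 0.19 (adjusted p = 0.527), and the uniconazole effect in wild type was -0.11 ± 0.19 (adjusted p = 0.777). Its interaction, -0.47 with a 95% interval of -1.01 to 0.08, did not pass (adjusted p = 0.723).

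XTH26, a gene of root hairs, was the measured XTH gene besides XTH32 that rose with uniconazole, and it did so in pkl. It had 14.1, 56.8 and 121 in pkl with uniconazole, 20.8, 89.25 and 225 in wild type with uniconazole, 8.5, 11.7 and 12.7 in pkl with solvent and 11.8, 61.2 and 121 in wild type with solvent. All 6 pkl arrays on uniconazole lay above all pkl arrays on solvent, whose mean was under the bacterial control level. Its mean rose at least 1.17-fold with uniconazole in pkl (log2 change 1.34 ± 0.44, adjusted p = 0.0265). Within every other group the arrays spread widely, with SDs of 69.1% to 73.9% of the mean. The pkl effect on XTH26 with solvent, -1.27 ± 0.44, did not pass (adjusted p = 0.0585), and it passed with an offset of 1, with arrays scaled to a common median or with the replicate block. The uniconazole effect in pkl did not pass with an offset of 64.

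EXGT-A3, the gene also known as XTH27, had 1819, 2183 and 2539 in pkl with uniconazole and 1682, 2104 and 2584 in wild type with uniconazole. It had 2132, 2471 and 2848 in pkl with solvent and 1764, 1877 and 2137 in wild type with solvent. The solvent groups met within a few units, and the rest overlapped widely. EXGT-A3 was higher in pkl with solvent by 0.36 ± 0.09 (adjusted p = 0.0109) and passed in no other contrast. XTH21 had group means of 4.5 to 14.3, all under the bacterial control level, and passed in no contrast. XTH29 had group means of 28.5 to 58.6, close to that level, and passed in none, with changes between groups of -0.82 ± 0.34 to 0.80 ± 0.34 and an interaction of 1.18 ± 0.48 (adjusted p = 0.528). Among these 5 genes 1 passed for the pkl effect with uniconazole, 1 for that with solvent, 2 for the uniconazole effect in pkl and 0 for that in wild type, where 18.6%, 11.7%, 22.0% and 16.5% of all probe sets passed in that order. A count of 1 in 5 genes is close to these shares. In wild type the smallest limma adjusted p was that of XTH29 at 0.109, and 1 of the 5 was under 0.05 before adjustment.

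**Figure D3:**
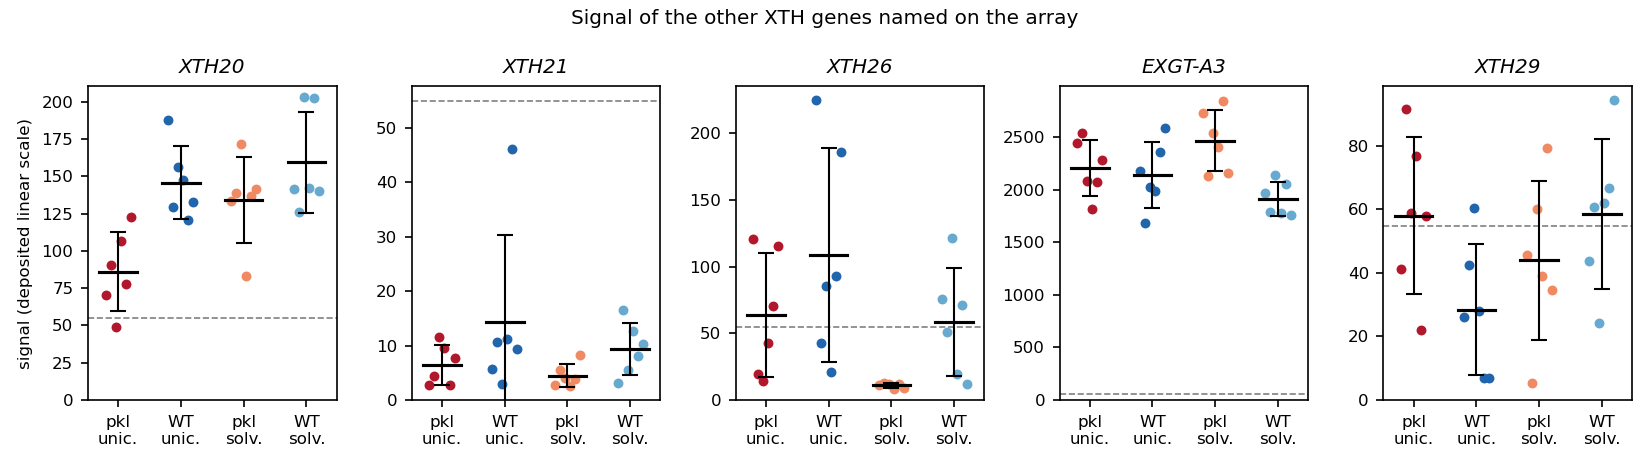
Signal (linear intensity, axes from 0) of the other XTH genes named on the array in each of the 24 arrays, by group (labels as in the plot of the 5 genes). Points are arrays, bars the mean ± SD (n = 6, cut off at 0 for XTH21), and the dashed line is the bacterial control level of 54.9. XTH21 lies under that line in every array, and XTH26 lies under it in all pkl arrays on solvent.

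Other genes of wall growth came from lists of known roles. Of 10 genes for xyloglucan synthesis and trimming 1 was named on the array, CSLC04, the glucan synthase of the xyloglucan backbone. It fell with uniconazole by 0.68 ± 0.10 in pkl (adjusted p = 5.29e-06) and by 0.44 ± 0.10 in wild type (adjusted p = 0.00203). The pkl effects on it were -0.12 ± 0.10 with uniconazole and 0.12 ± 0.10 with solvent (adjusted p = 0.448 and 0.494). Of 7 genes of cellulose synthesis 1 was named, COB, which encodes the COBRA protein needed for oriented cellulose deposition. It fell with uniconazole by 0.45 ± 0.09 in pkl (adjusted p = 5.89e-04) and by 0.29 ± 0.09 in wild type (adjusted p = 0.0311), and it passed in no other contrast.

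Expansins loosen walls without cutting polymers, and 11 of 17 were named on the array. With uniconazole 2 rose and 5 fell in pkl, where 11.4% of all probe sets rose and 10.6% fell. In wild type 2 rose and 3 fell, where 9.07% and 7.43% of all probe sets did. The median log2 changes of the 11 were -0.23 in pkl and -0.18 in wild type, against 0.02 and -0.02 for all probe sets. EXLA2, an expansin-like gene, was at least 5.01-fold lower with uniconazole in pkl (adjusted p = 3.19e-07) and 4.07-fold lower in wild type (adjusted p = 4.34e-05). EXPA8 fell by 1.26 ± 0.12 in pkl (adjusted p = 9.50e-09), and EXLA1 fell by 0.98 ± 0.13 in wild type (adjusted p = 2.65e-06). EXPA15 rose with uniconazole as XTH32 did, by 0.74 ± 0.10 in pkl and 0.97 ± 0.10 in wild type (adjusted p = 1.14e-06 and 2.84e-08). For the pkl effect 3 expansins were higher and 1 lower with uniconazole (9.87% and 8.69% of all probe sets), and 2 were higher and 1 lower with solvent (6.78% and 4.97% of all probe sets). EXPA9 was lower in pkl by -0.92 ± 0.11 with uniconazole and -0.59 ± 0.11 with solvent (adjusted p = 9.06e-07 and 5.26e-04), and EXLA1 was higher by 0.85 ± 0.13 and 0.58 ± 0.13 (adjusted p = 1.98e-05 and 0.00256). EXPA4 was higher in pkl with solvent by 0.39 ± 0.09 (adjusted p = 0.00252). None of the 11 (0) passed the interaction in limma, where their smallest adjusted p was 0.362 and 3 were under 0.05 before adjustment.

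**Figure D4:**
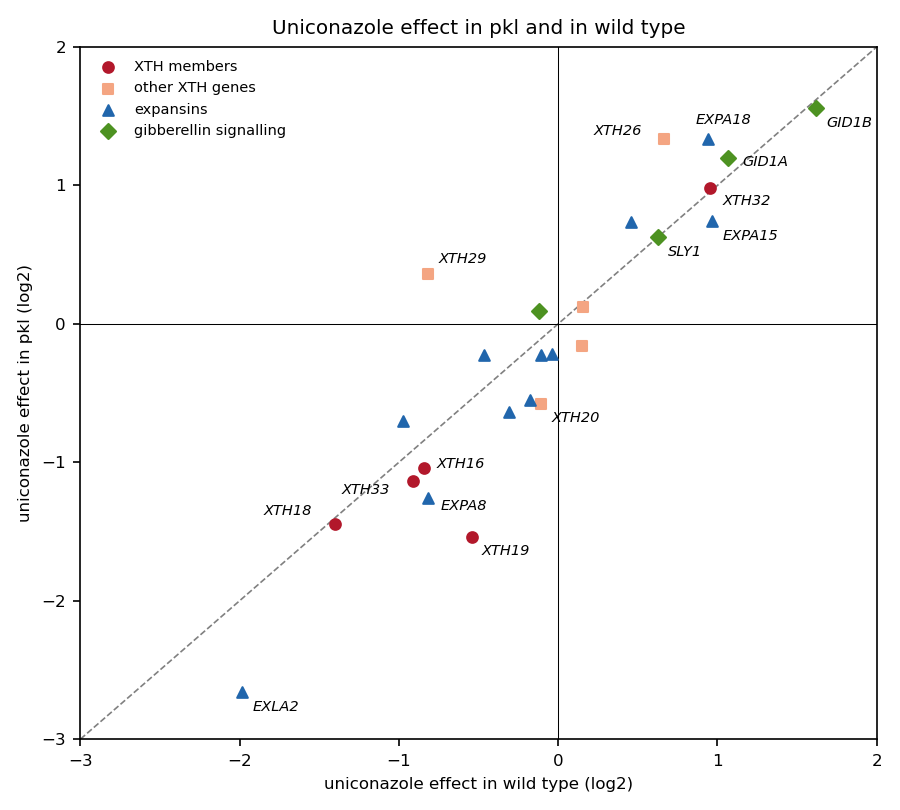
Log2 change with uniconazole in pkl (y axis) against that in wild type (x axis) for the XTH genes, expansins and gibberellin signalling genes named on the array; the dashed line marks equal change. XTH18 and XTH32 lie on the line, and XTH19 lies below it at -0.54 in wild type and -1.54 in pkl.

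Of 9 gibberellin signalling genes 4 were named, and 3 rose with uniconazole in either genotype, where 11.4% of all probe sets rose in pkl and 9.07% in wild type. They were the receptor genes GID1A (1.20 ± 0.07 in pkl and 1.06 ± 0.07 in wild type, adjusted p = 4.54e-13 and 8.31e-12) and GID1B (1.56 ± 0.17 and 1.62 ± 0.17, adjusted p = 6.19e-08 and 6.18e-08), and SLY1, the F-box gene for DELLA turnover (0.63 ± 0.07 in each, adjusted p = 1.76e-07 and 3.34e-07). GID1C did not pass in any contrast. In pkl GID1A and SLY1 were higher than in wild type with either treatment, by 0.42 ± 0.07 to 0.55 ± 0.07 for GID1A and by 0.43 ± 0.07 in each for SLY1. GID1B was lower in pkl, by -0.58 ± 0.17 with uniconazole and -0.52 ± 0.17 with solvent (adjusted p = 0.014 and 0.0408). The lists of gibberellin metabolism and brassinosteroid genes had 0 members with a probe set named for that gene alone, so they were not analysed here.

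Markers of tissues that a germinating seed can hold moved too, and their part in the XTH changes was not tested. Both root hair markers, EXPA7 and EXPA18, were named. Their summed signal was 1992 to 4854 in pkl with uniconazole, 769.6 to 2328 in wild type with uniconazole, 652.5 to 1917 in pkl with solvent and 529.6 to 1122 in wild type with solvent. EXPA18 rose with uniconazole by 1.34 ± 0.28 in pkl and 0.94 ± 0.28 in wild type (adjusted p = 6.22e-04 and 0.0189), while the root-expressed XTH18 and XTH19 fell. The uniconazole effect on EXPA7, 0.74 ± 0.29 in pkl and 0.45 ± 0.29 in wild type, did not pass (limma, adjusted p = 0.0698 and 0.333). EXPA18 and EXPA7 were higher in pkl with uniconazole by 0.89 ± 0.28 and 0.90 ± 0.29 (adjusted p = 0.0245 and 0.0297). Of 5 leaf photosynthesis markers 4 were named, and all 4 rose with uniconazole in pkl and 3 in wild type (11.4% and 9.07% of all probe sets). Their sum was 10287 to 18022 in pkl with uniconazole, 13559.6 to 21828 in wild type with uniconazole, 7012 to 10214.5 in pkl with solvent and 11516 to 15988 in wild type with solvent. Lower values in pkl, as for XTH32, passed for 3 of the 4 with uniconazole and for 2 with solvent (8.69% and 4.97% of all probe sets). Of 9 germinating seed markers 3 were named, OLEO3, PAP85 and ICL. Their sum, nearly all of it ICL of the glyoxylate cycle, was 39538 to 46829 in pkl with uniconazole, 37174 to 50151 in wild type with uniconazole, 36397 to 43577 in pkl with solvent and 37107 to 47587.5 in wild type with solvent. OLEO3, an oleosin, and PAP85, a vicilin-like storage protein gene, rose with uniconazole in pkl by 1.75 ± 0.10 and 1.27 ± 0.14 (adjusted p = 2.42e-13 and 1.20e-07) and in wild type by 0.89 ± 0.10 and 0.79 ± 0.14 (adjusted p = 1.53e-07 and 2.11e-04). The sum hides a difference between the genotypes in PAP85, which was higher in pkl by 2.95 ± 0.14 with uniconazole (adjusted p = 2.25e-14) and passed as well with solvent, at 2.47 ± 0.14, with all pkl arrays above all wild type ones. The other markers did not share it. OLEO3 was higher in pkl with uniconazole by 0.29 ± 0.10 but lower with solvent, at -0.57 ± 0.10 (limma, adjusted p = 0.0357 and 1.52e-04). ICL passed in no contrast. In no group was the mean of any of these markers at or under the bacterial control level.

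The genes most like each XTH gene were sought among 1381 other genes with a symbol, by Pearson's r of log2(signal + 16) over the 24 arrays, and the 3 highest were taken. The arrays share the 4 groups, so r depends largely on the group means, and these values are given with no test. XTH16 was most like EXO (r = 0.956), the growth gene EXORDIUM, THE1 (0.948), a receptor kinase of wall integrity, and DRT100 (0.944), a leucine-rich repeat protein gene. EXO averaged 599 ± 51.8 in pkl with uniconazole, 827 ± 116 in wild type with uniconazole, 1613 ± 178 in pkl with solvent and 2244 ± 102 for wild type seeds on solvent (SD, n = 6 each), the same order as XTH16. XTH18 was most like CXE18 (0.941), CDI (0.910) and PRA1.B4 (0.906), of which CXE18 is a carboxylesterase-like and PRA1.B4 a prenylated Rab acceptor gene. XTH19 was most like BZIP61 (0.932), a transcription factor gene, DRT100 (0.915) and the aldehyde dehydrogenase gene ALDH3F1 (0.911). BZIP61 averaged 90.9 ± 62.6 in pkl with uniconazole, 237 ± 63.8 in wild type with uniconazole, 608 ± 81.2 in pkl with solvent and 783 ± 66.9 for wild type seeds on solvent (SD, n = 6 each). Like XTH19 it was lowest in pkl with uniconazole, and its log2 interaction of -1.14 ± 0.45 did not pass.

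XTH32 had the least close neighbours: SBT4.12 (0.882), a subtilase gene, Prx37 (0.869), a peroxidase gene, and CHL (0.867), which encodes the chloroplast lipocalin. SBT4.12 averaged 127 ± 23.2 in pkl with uniconazole, 259 ± 51.8 in wild type with uniconazole, 73.1 ± 14.6 in pkl with solvent and 129 ± 29.2 for wild type seeds on solvent (SD, n = 6 each). All 3 neighbours were lower in pkl and higher with uniconazole in their means, though the uniconazole effect on Prx37 did not pass in either genotype. XTH33 was most like WES1 (0.926), a GH3 gene of auxin conjugation, ASPGB1 (0.921), an asparaginase gene, and UGT74B1 (0.907), a glucosyltransferase gene of glucosinolate synthesis. These were higher in pkl than in wild type and lower with uniconazole than with solvent in their means, as XTH33 was. With uniconazole the pkl effect did not pass for ASPGB1 or UGT74B1.

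**Figure D5:**
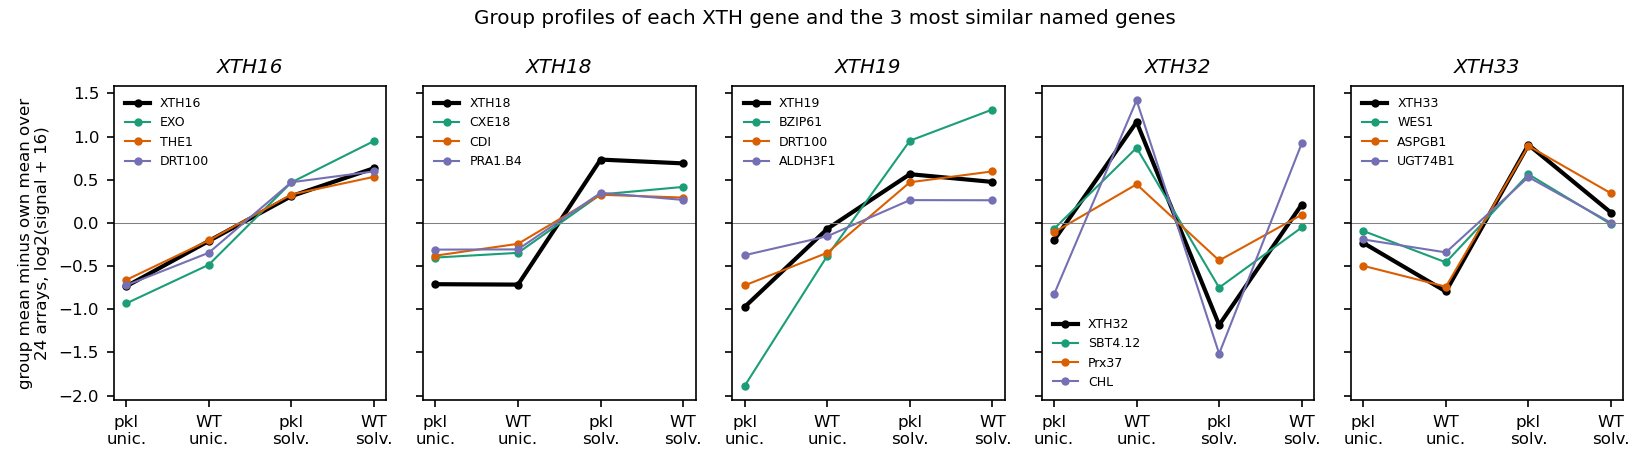
Group means of log2(signal + 16) for each XTH gene and its 3 most similar genes, each drawn as the difference from its mean over the 24 arrays, by group (labels as in the plot of the 5 genes). Pearson's r over arrays lay between 0.867 and 0.956, and the lines of a panel still differ in size and in places in direction. On solvent the plotted means of BZIP61 and DRT100 are lower in pkl than in wild type, while that of XTH19 is not. The pkl effect with solvent did not pass for any of these genes.

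Array quality differed little between groups, with some exceptions. Median signals were 310.25 to 371, and pkl with uniconazole had the highest, 358.5 to 371. Signals under 16 made up 9.07% to 13.0% of an array. RNA integrity was read from control probe sets. The log2 3′/5′ ratio of GAPDH averaged 0.29 ± 0.05 in pkl with uniconazole, 0.36 ± 0.07 in wild type with uniconazole, 0.23 ± 0.06 in pkl with solvent and 0.26 ± 0.08 for wild type seeds on solvent (SD, n = 6 each). In the same order actin averaged 0.31 ± 0.11, 0.33 ± 0.17, 0.29 ± 0.03 and 0.25 ± 0.18. Ubiquitin averaged 0.77 ± 0.11, 0.80 ± 0.13, 0.63 ± 0.07 and 0.70 ± 0.19, larger than the others, and it was not used as a covariate. The means of GAPDH, actin and ubiquitin were each higher with uniconazole than with solvent in either genotype. Of the 25 log2 changes of the 5 XTH genes, 24 kept their side of the threshold with the GAPDH and actin ratios as covariates, the exception being the pkl effect on XTH33 with uniconazole. Log2 signals of any 2 arrays correlated at 0.954 to 0.983 across probe sets, which are not independent replicates, and 0 pairs of arrays held identical values.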

How the data were processed

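RNA from germinating seeds had been hybridised to 24 ATH1 arrays, 6 per group by their titles. Per the submitters' processing notes the deposited linear intensity values were made with MAS5, and its version is not given in the sources used here. The mean intensity of each deposited array after trimming 2% at each end was 1000.1, so the arrays had been scaled alike. No scan dates were used here. Of 22810 probe sets 64 controls were left out. GEO's annotation paired 13513 of the rest with 1 gene and 503 with several and did not list 8730. Symbols were updated through RefSeq's TAIR10.1 gene table.

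Signals were tested as log2(signal + 16), an offset that understates changes of dim probe sets, with no filter. All 4 groups entered 1 fit in limma 3.58.1 under R 4.3.3 (lmFit, eBayes with trend, 20 residual degrees of freedom), and Benjamini-Hochberg adjustment ran over 22746 probe sets in each of 5 contrasts. The interaction is the pkl effect with uniconazole minus that with solvent. The fit was tested on simulated data. P-values measure the spread between arrays said to be biological replicates, and the number of arrays limits the precision. Where a mean lay at or under 54.9, the 95th percentile of 648 values of 27 bacterial control probe sets, a fold is a lower bound against 54.9, and none is given where both means did. Correlations used 100000 permutations of arrays within groups.

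The 5 genes, the lists and the tests were chosen with earlier results of these data known. Text names all XTH genes measured, the 3 genes most like each of the 5 (by r, with a mean above 54.9 in a group), and of other lists up to 4 passing genes per contrast by size of change, plus genes given as not passing and the markers. Alternatives were offsets of 1 and 64, a filter on low signal, median scaling, quantile normalization, a replicate block, single contrasts, no trend and leaving out each array, and, chosen after seeing the data, 3′/5′ ratios as covariates. The main fit did not pair arrays by their shared set numbers. The deviations of 36 same-numbered pairs of arrays correlated at -0.087 to 0.18, with 7 of 36 over 0.1 against 10 of 180 other pairs. Whether the sets share an effect was not tested.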

Additional observations from a re-analysis of the deposited data

Results flagged for a closer look

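XTH19 stood out because its pkl effect differed between treatments in the fit over all probe sets, with an interaction of -0.99 on the log2 scale (given without a p, since the gene was chosen for its changes). Its highest wild type array on uniconazole, 4528.3, also lay far from the next, 3823.3. OLEO3, of the germinating seed markers, had an interaction of 0.86 ± 0.14 (limma, adjusted p = 0.00371), with a pkl effect of 0.29 ± 0.10 with uniconazole and -0.57 ± 0.10 with solvent.

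In the rest, 1 array lay far from the other 5 of its group by Dixon's criterion. Chance gives this in about 1 of 20 groups, or 9.6 of the 192 checked over 48 genes, and 13 were found. On uniconazole the high arrays of pkl were those of EXPA18 (3046.1, next 1586.6), EXLA2 (92.6, next 39.6) and Prx37 (356.2, next 277.8), and EXPA4 had a low one (606.1, next 747.0). XTH21 had a high array in wild type with uniconazole (46.2, next 11.2), under the bacterial control level. In pkl with solvent UGT74B1 (4332.1, next 3785.6), ICL (41289.3, next 36826.1) and EXLA3 (26.7, next 14.8) had a high array, and EXPA4 (898.3, next 1107.0) and CHL (82.0, next 164.0) a low one. In wild type with solvent THE1 had a high array (1384.6, next 1227.2) and BZIP61 a low one (652.7, next 790.1).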

How the results depend on the processing

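The 25 log2 changes of the 5 XTH genes kept their side of the threshold under offsets of 1 and 64, the filter, median scaling, quantile normalization and no trend. Every change that passed also kept its direction. Some that did not pass lay near 0 and changed sign. The pkl effect on XTH18 with uniconazole ran from -0.13 to 0.01 over the settings and from -0.16 to 0.08 with an array left out. Leaving out each array in turn, 598 of 600 values kept their side, and the exceptions are those of XTH33 given above. The number of the 5 genes that passed was then 3 to 4 for the pkl effect with uniconazole, 3 for that with solvent, 5 for either uniconazole effect and 1 for the interaction. The interaction of XTH19 ranged from -1.08 to -0.89 when an array was left out and from -1.02 to -0.98 under the other settings. With the replicate block all 25 changes kept their side as well. The number of other XTH genes that passed for the pkl effect with solvent was 1, and it was 2 with the replicate block, an offset of 1 or median scaling, by the addition of XTH26 (-1.27, -1.96 and -1.30). For the uniconazole effect in pkl it was 2, and it was 1 with an offset of 64, where XTH26 was 0.69 ± 0.26, and under median scaling EXGT-A3 passed (-0.24 ± 0.09). The main fit did not pair the arrays by set number. When each array was compared with the arrays of the other groups, 13 of 24 correlated best with one of their own number. Whether the sets share an effect was not tested. Same-numbered pairs had a median of 0.036 with 7 of 36 over 0.1, and other pairs -0.006 with 10 of 180. With the replicate block calls over all probe sets rose in each contrast, as from 4222 to 4666 for the pkl effect with uniconazole. No pair of XTH genes correlated after adjustment under the offsets, median scaling or quantile normalization.

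XTH21 and XTH29 did not pass the filter and have no value under it, and the filter leaves the correlations as they are. Over all probe sets median scaling turned the split of calls. For the pkl effect with uniconazole it gave 1570 higher and 2830 lower (2246 and 1976 as deposited), for that with solvent 1131 and 1437 (1542 and 1130), for the uniconazole effect in pkl 1747 and 3169 (2594 and 2405) and for that in wild type 1411 and 2187 (2064 and 1691). The interaction count was 32, against 20 without the trend and 15 to 39 with an array left out, and the uniconazole effect in wild type had 3755 calls, against 2422 with 3′/5′ ratios as covariates. The cause was not tested. Signals under 54.9, as for XTH21, are not told from background.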
